A study of Mus musculus with 3 samples.

Results

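The 10 genes described here encode transcription regulators of endothelial identity outside the ETS family. They are the SoxF genes Sox7, Sox17 and Sox18, the homeobox genes Meox1 and Meox2 with their partner Tcf15, and Tal1, Lyl1, Lmo2 and Gata2, whose proteins can join in 1 complex. The 10 genes were chosen by symbol, and each was listed once among the 17583 genes of the deposited table. The values came from ribosome-associated RNA of 3 hearts of EC-RiboTag mice with the genotype Cdh5-CreERT2;Rpl22tm1.1Psam. In these mice, tamoxifen activates a Cre recombinase expressed from the endothelial VE-cadherin gene Cdh5, and Cre switches the ribosomal protein gene Rpl22 to a version with a hemagglutinin tag. The tagged ribosomes were precipitated from heart homogenate and their RNA was sequenced in single reads of 72 bases. All 3 libraries form 1 group. According to the labels the hearts were taken on day 7 after coronary ligation, while the RiboTag methods name no infarction. The letters Rz in the library names are not spelled out in the labels. Elsewhere the study writes RZ for the remote zone, the heart muscle away from the infarct. For PCR measurements it also purified ribosome-associated RNA from this zone, and from border and infarct zones, of EC-RiboTag hearts 7 days after infarction. Whether these libraries hold the remote zone or whole hearts is not settled by the sources used here. The age and sex of each mouse are not given in the labels. By PCR of cell type markers the study compared precipitates of EC-RiboTag hearts with homogenate. Neither a control group nor unprecipitated homogenate was analysed here. What follows are therefore levels in precipitated RNA, and no conditions were compared.

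SoxF proteins bind DNA with a high mobility group box and act in part redundantly in the formation of arteries, capillaries and lymphatic vessels. MEOX2 and TCF15 can form a heterodimer, which in heart capillary endothelium drives genes for the uptake of fatty acids. TAL1 and LYL1 are basic helix-loop-helix proteins that pair with the E proteins TCF3, TCF4 and TCF12, and the adaptor LMO2 connects such pairs, together with LDB1, to GATA factors. This complex is best known from blood stem cells and is also used by endothelial cells.

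The authors deposited normalized counts rounded to whole numbers. From the whole numbers that rounding left empty or doubled, 1 read was worth between 0.961 and 1.06 normalized counts, so the 10 genes rested on means of 539 to 1880 reads. All 8 endothelial markers on the list were present, and their median was 0.690 normalized counts per base of canonical transcript. Cardiomyocyte transcripts were present as well, with a median of 0.608 per base over 6 markers. Per base of all annotated exons the medians were further apart, 0.3585 for the endothelial and 0.175 for the cardiomyocyte markers. The part of cardiomyocyte transcripts in the values below was not tested. Because the libraries are bulk samples, fewer cells of a type and less RNA per cell cannot be told apart. The labels call the libraries biological replicates, and the SDs below measure the spread between them.

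All 10 genes had a mean normalized count of at least 200, a level reached by 53.2% of all listed genes. A longer transcript gives more reads per molecule, so levels of different genes are given per base, as the mean normalized count divided by the length of the Ensembl canonical transcript. Where undivided normalized counts of different genes stand side by side, they say nothing about which has more molecules. The 9356 genes that reached 200 and had a known length gave a median of 0.176 per base and a 90th percentile of 0.428. The median of the 10 regulators was 0.498 per base. All 10 lay above the median of these genes and 6 above the 90th percentile, with Sox18 and Tcf15 the highest and Tal1 the lowest. Division by the length of all annotated exons, which joins the exons of every transcript, also placed all 10 above the median and 6 above the 90th percentile.

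**Figure D1:**
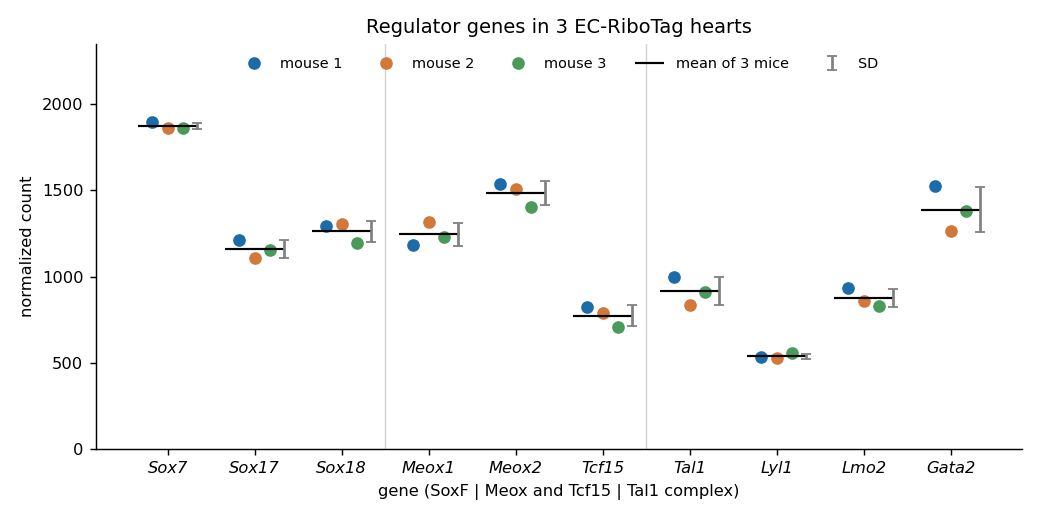
Normalized count (y axis, from 0) of each regulator (x axis) in mice 1, 2 and 3 (points), with the mean (line) and SD (bar) of 3 mice. Sox7 was the highest with 1861 to 1897 and Lyl1 the lowest with 526 to 555, and these heights are not corrected for transcript length.

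The SoxF genes were all 3 well represented. Sox7, which lies on the plus strand of chromosome 14 of GRCm39 from 64181122 to 64188181, was read in mice 1, 2 and 3 with 1897, 1861 and 1865 normalized counts, a mean of 1874 ± 19.7 (SD, n = 3). The 3 mice were nearly equal, with a coefficient of variation of 1.05%, less than the 2.31% that counting its 1880 reads alone would give. Removal of duplicate reads by the authors limits how far such a count can vary, and its part in this small spread was not tested. Sox17, which is known for its role in arterial endothelium and is a minus-strand gene of chromosome 1 (4561154 to 4567577), had 1212, 1110 and 1155, a mean of 1159 ± 51.1 (SD, n = 3). Sox18, known for starting the lymphatic program through Prox1, is a minus-strand gene of chromosome 2 (181311629 to 181313433) with 1292, 1306 and 1193, a mean of 1264 ± 61.6 (SD, n = 3). Mouse 1 was highest for Sox7 and Sox17, and mouse 3 was lowest for Sox18. Per base of canonical transcript the order was Sox18 with 0.778 ± 0.038, Sox7 with 0.523 ± 0.006 and Sox17 with 0.370 ± 0.016 (SD, n = 3). Sox18, with a transcript of only 1625 bases, ranked 68 of 17475 genes per canonical base and 5 per exonic base. Sox7 ranked 472 and 75, and Sox17 ranked 1404 and 1181.

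Within each mouse Sox17 lay below Sox18, with a log2 ratio per canonical base of -1.04, -1.18 and -0.99 and a mean of -1.07 ± 0.10 (SD, n = 3, exact sign-flip permutation test, two-sided p = 0.25). The size of this ratio depends on the length used, since it was -1.84 by exonic length and -0.12 without division by length. Sox7 lay below Sox18 by a log2 ratio of -0.57 ± 0.07 and above Sox17 by 0.50 ± 0.05, each in 3 of 3 mice (SD, n = 3, exact sign-flip permutation test, two-sided p = 0.25 each). Without division by length the ratio of Sox7 to Sox18 turned to 0.57. With 3 mice this test cannot give a p below 0.25, so none of the 7 ratios computed here could pass 0.05.

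The 3 SoxF genes encode similar DNA-binding boxes, and reads that map to several places were removed by the authors. No window of 72 bases, the read length, in the canonical transcript of any of the 10 regulators has an exact copy elsewhere in GRCm39. The most similar coding windows of related regulators are shown because they bear on how far apart the reads of related genes are. They were sought without gaps and within a single coding exon. Windows across exon junctions, windows outside the coding sequence and trimmed reads shorter than 72 bases were not compared between these genes. In each pair below the bases that differ are in capitals. Sox17 at chr1:4562791-4562862 and Sox18 at chr2:181312689-181312760, both on the minus strand, share 65 of 72 bases.
Sox17: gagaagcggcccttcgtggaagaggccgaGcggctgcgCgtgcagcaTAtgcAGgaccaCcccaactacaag
Sox18: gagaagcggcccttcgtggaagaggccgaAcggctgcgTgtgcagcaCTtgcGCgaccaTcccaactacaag
Sox7 at chr14:64185240-64185311 on the plus strand and Sox17 at chr1:4562784-4562855 share 63 of 72 bases.
Sox7: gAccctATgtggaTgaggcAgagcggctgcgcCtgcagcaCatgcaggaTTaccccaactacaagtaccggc
Sox17: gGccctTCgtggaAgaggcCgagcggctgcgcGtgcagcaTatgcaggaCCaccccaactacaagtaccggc
The nearest pair of such windows within coding exons therefore differs at 7 bases, and that of Sox7 and Sox18 at 14.

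The heart endothelial pair Meox2 and Tcf15, and also Meox1, stood high per base. Meox2, on the plus strand of chromosome 12 from 37158539 to 37229533, had normalized counts of 1537, 1511 and 1403, a mean of 1484 ± 71.1 (SD, n = 3), or 0.627 ± 0.030 per base. Tcf15, on the plus strand of chromosome 2 from 151985481 to 151991017, had 824, 787 and 706, a mean of 772.3 ± 60.4 (SD, n = 3). Both genes had their highest value in mouse 1 and their lowest in mouse 3. The canonical transcript of Tcf15 has only 997 bases, and per base of it the level was 0.775 ± 0.061 (SD, n = 3), rank 72 of 17475 genes. Meox2 ranked 227 per canonical base and 24 per exonic base, and Tcf15 ranked 43 per exonic base.

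Meox1, the paralog of Meox2, which is known from somite development and from activated fibroblasts, was nearly as high. It is a minus-strand gene of chromosome 11 (101768336 to 101785200) with 1185, 1318 and 1231, a mean of 1245 ± 67.5 (SD, n = 3), or 0.552 ± 0.030 per base. Meox1 was highest in mouse 2 and lowest in mouse 1, unlike Meox2. The log2 ratio of Meox2 to Meox1 per base was 0.31, 0.13 and 0.12, a mean of 0.18 ± 0.11 (SD, n = 3, exact sign-flip permutation test, two-sided p = 0.25), or 1.14-fold. The 6 fibroblast markers summed to 2643, 3143 and 3486 normalized counts in mice 1, 2 and 3, and 4 of the 6 varied with a coefficient over 20%. Postn with 344, 741 and 671, Col1a1 with 378, 642 and 401 and Col1a2 with 454, 669 and 531 were lowest in mouse 1 and highest in mouse 2, the order of Meox1. The other 3 of the 6, Dcn with 813, 579 and 1007, Lum with 458, 309 and 618 and Pdgfra with 196, 203 and 258, were not in that order, which 15.6% of all 9358 genes that reached 200 had. Per canonical base these 6 markers ranged from 0.033 to 0.188, below Meox1, and their part in the level of Meox1 was not tested.

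The ratio of Meox2 to Tcf15 turned with the length used. It was -0.30 ± 0.05 on the log2 scale per canonical base (SD, n = 3, exact sign-flip permutation test, two-sided p = 0.25), but 0.16 per exonic base and 0.94 without division by length. Which gene of the pair is higher per molecule is therefore not settled by these data. The most similar coding windows of the Meox genes lie at chr12:37217401-37217472 on the plus strand for Meox2 and at chr11:101770102-101770173 on the minus strand for Meox1, and share 57 of 72 bases. Bases that differ are in capitals.
Meox2: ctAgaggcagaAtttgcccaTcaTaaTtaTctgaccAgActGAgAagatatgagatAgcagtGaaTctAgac
Meox1: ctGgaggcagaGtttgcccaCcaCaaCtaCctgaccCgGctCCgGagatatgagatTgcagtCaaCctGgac

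**Figure D2:**
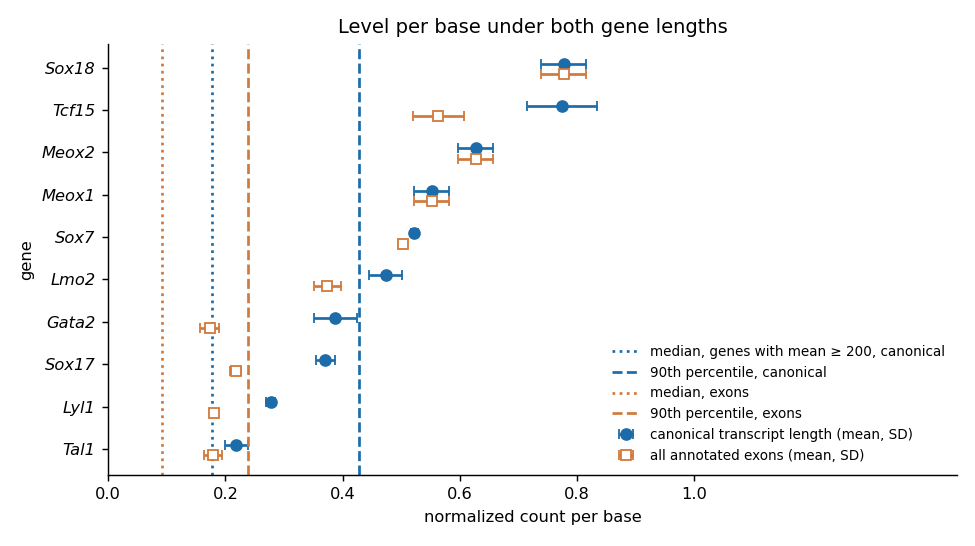
Normalized count per base (x axis) of each regulator (y axis), as mean and SD of 3 mice, by canonical transcript length (filled circles) and by all annotated exons (open squares), with the median (dotted) and 90th percentile (dashed) of genes with a mean of at least 200. Gata2 fell most between the lengths, from 0.388 to 0.173, while Sox18, Meox1 and Meox2 have the same length under both.

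Per base of canonical transcript, the 4 genes of the Tal1 complex had a median of 0.333, against 0.523 for SoxF and 0.627 for Meox1, Meox2 and Tcf15. The groups overlapped, since Lmo2 and Gata2, with 0.473 and 0.388, lay above Sox17 with 0.370, Gata2 in 2 of 3 mice. Gata2, a zinc finger factor of blood stem cells and endothelium on the plus strand of chromosome 6 from 88170873 to 88184014, had normalized counts of 1525, 1262 and 1378, a mean of 1388 ± 131.8 (SD, n = 3). Tal1, on the plus strand of chromosome 4 from 114913623 to 114928952, had 998, 835 and 909, a mean of 914 ± 81.6 (SD, n = 3). Gata2 and Tal1 shared the same pattern, highest in mouse 1 and lowest in mouse 2, as did Sox7 and Sox17. Lmo2, the adaptor of the complex on the plus strand of chromosome 2 from 103788331 to 103812223, had 932, 857 and 831, a mean of 873.3 ± 52.4 (SD, n = 3). Lyl1, the paralog of Tal1 on the plus strand of chromosome 8 from 85428078 to 85431569, had 530, 526 and 555, a mean of 537 ± 15.7 (SD, n = 3). Lyl1 was the lowest of the 10 genes in normalized counts and the only one of them with its highest value in mouse 3.

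Per base of canonical transcript, Lmo2 led this group with 0.473 ± 0.028, followed by Gata2 with 0.388 ± 0.037, Lyl1 with 0.277 ± 0.008 and Tal1 with 0.219 ± 0.020 (SD, n = 3). Tal1, the highest of the paralogs in normalized counts, was the lower per base, with a log2 ratio to Lyl1 of -0.35 ± 0.13 (SD, n = 3, exact sign-flip permutation test, two-sided p = 0.25). By exonic length the difference was only -0.02, with mice on both sides of 0 (exact sign-flip permutation test, two-sided p = 1.0), and without division it was 0.76. The log2 ratio of Lmo2 to Gata2 was 0.29 ± 0.09 per canonical base (SD, n = 3, exact sign-flip permutation test, two-sided p = 0.25), 1.12 per exonic base and -0.67 without division. Gata2 has 15 annotated transcripts and 8024 bases of exons against 3580 in the canonical one, and which of them the RNA carried was not tested.

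The coding windows of Tal1 and Lyl1 that are most alike lie at chr4:114925500-114925571 and chr8:85430553-85430624, both on the plus strand, and share 58 of 72 bases. Bases that differ are in capitals.
Tal1: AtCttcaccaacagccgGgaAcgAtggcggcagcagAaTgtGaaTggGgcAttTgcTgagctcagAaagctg
Lyl1: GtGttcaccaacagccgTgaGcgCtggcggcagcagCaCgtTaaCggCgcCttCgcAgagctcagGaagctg
An exon of Nfix on the opposite strand overlaps 229 bases of the canonical Lyl1 transcript, the noncoding gene Spehd 207 bases of Gata2, and the noncoding gene Gm74574 420 bases of Sox18. The authors counted reads by strand. No gene on the same strand has exons within the canonical exons of the 10 regulators.

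**Figure D3:**
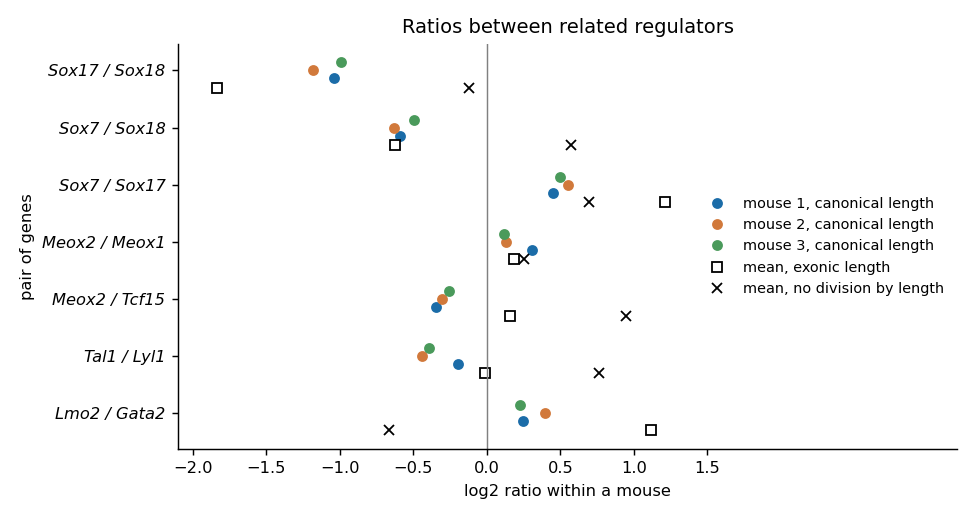
Log2 ratio within a mouse (x axis) for 7 pairs of regulators (y axis), as 1 point per mouse by canonical length, with the mean by exonic length (squares) and without division by length (crosses). Between canonical and exonic length the sign of Meox2 to Tcf15 turned, from -0.30 to 0.16, and the other 6 kept theirs.

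Ordered by level per canonical base, the 10 regulators ran from Sox18 over Tcf15, Meox2, Meox1, Sox7, Lmo2, Gata2, Sox17 and Lyl1 to Tal1, a 3.56-fold range. Each gene was set against the next one in this order, and in 6 of 9 cases the log2 difference exceeded the larger SD of the pair. These 6 pairs kept their order in each of the 3 mice. Sox18 and Tcf15, Meox1 and Sox7, and Gata2 and Sox17 did not differ by more than the SD, and each of these pairs changed order in 1 mouse. By exonic length the order ended with Lyl1, Tal1 and Gata2, and again 6 of 9 neighbours were apart, all but Tcf15 and Meox1, Lyl1 and Tal1, and Tal1 and Gata2. Duplicate reads had been removed by the authors, which limits how many single-end reads can start at each base. Of the 9356 genes that reached 200 and had a known length, 14 exceeded 1 per canonical base. Sox18 and Tcf15, the highest of the 10, lay above the 99th percentile of the same genes, 0.737, and the part of duplicate removal in these levels was not tested.

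None of the 10 regulators varied between the mice with a coefficient of variation over 20% (0 of 10), a spread shown by 8.0% of all 9358 genes that reached a mean of 200. The coefficients ran from 1.05% for Sox7 to 9.49% for Gata2, with a median of 5.15%. Over the 4813 genes whose means lay in the range of the 10, the median was 6.56%, and 7 of the 10 were below it. For Sox7 and Lyl1 the spread was no larger than counting error, which for Lyl1 was 4.31% against an observed 2.93%, and here too the part of duplicate removal was not tested. Mouse 1 held the highest value of 7 regulators, and the lowest value fell to mouse 2 for 5, mouse 3 for 4 and mouse 1 for 1 of them.

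Tal1 deviated from its own mean by 0.131, -0.127 and -0.004 on the log2 scale in mice 1, 2 and 3, and Gata2 by 0.140, -0.133 and -0.006. This pair was singled out after its values were seen. Their largest difference over the 3 mice was 0.009, and 15 of the 9358 genes (0.16%) were as near to Tal1. Since the pair was chosen in this way, this share does not measure how unusual the match is. Counting error was 3.30% for Tal1 and 2.68% for Gata2, so nearness this fine is not resolved. Among 37 related regulators with a mean of at least 200, the genes nearest to Meox2 were Cbfa2t2, Id1 and Tcf3, with largest differences of 0.014, 0.016 and 0.018 over 3 mice. The genes nearest to Tcf15 were Cbfa2t2, Id1 and Id3, with 0.045, 0.049 and 0.053. Since 113 of all 9358 genes were as near to Meox2 as Cbfa2t2, and 700 as near to Tcf15, 3 mice do not single out a partner by pattern.

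**Figure D4:**
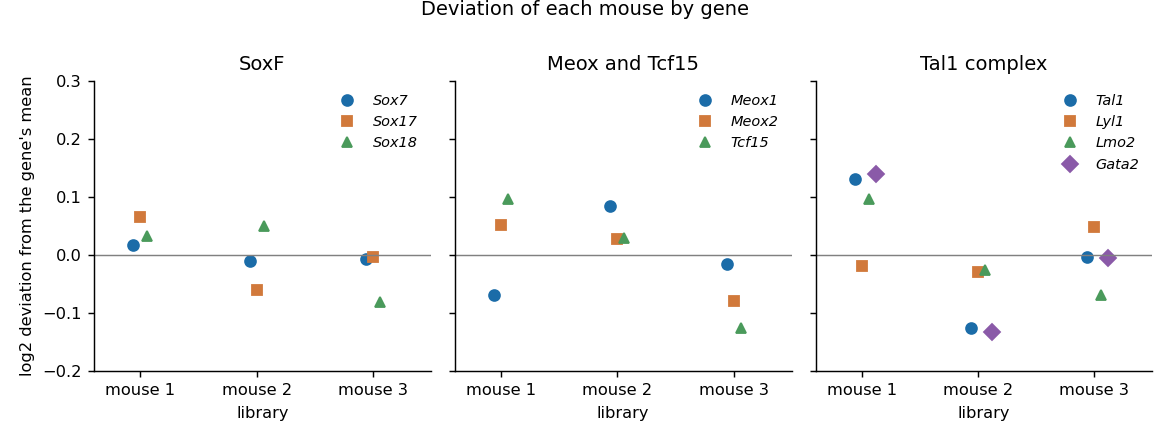
Log2 deviation from the mean of the gene (y axis) in each mouse (x axis) for the SoxF genes, the Meox genes with Tcf15, and the genes of the Tal1 complex. Tal1 and Gata2, a pair chosen after its values were seen, lie within 0.009 of each other. Meox2 and Tcf15 are lowest in mouse 3, and Meox1 goes the other way in mouse 1.

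Beyond the SoxF genes, 11 of 16 other Sox genes were listed and 3 of them had a mean of at least 200. Sox13 had 1581, 1519 and 1581 normalized counts, or 0.410 per base, and Sox4 had 1439, 1284 and 1139, or 0.268 per base. Sox12 followed with 505, 604 and 613. These levels lay within or below the range of the SoxF genes per canonical base. The remaining 8 listed Sox genes had means between 2.33 for Sox8 and 67.7 for Sox6, among them Sox9 with 17, 30 and 19, and Sox1, Sox2, Sox3, Sox14 and Sox15 were not listed.

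Gata2 was the highest of the Gata genes. Gata6, which is expressed in heart endothelium and muscle, had 510, 400 and 645 normalized counts, and Gata4, the cardiac factor, had 290, 272 and 545. Gata3 had 235, 89 and 169, Gata5 had 13, 4 and 39, and Gata1, the erythroid factor, was not listed. Per canonical base Gata6 reached 0.113 and Gata4 0.087, against 0.388 for Gata2. The coefficient of variation was 23.7% for Gata6 and 41.4% for Gata4 and was 9.49% for Gata2. The cofactor Zfpm1 (Fog1) had 994, 964 and 1261, or 0.238 per base, and Zfpm2 had 101, 147 and 156.

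Partners through which the Tal1 complex works were present, with 14 of 15 listed and 11 at a mean of at least 200. The E proteins had normalized counts of 3761 ± 70.9 for Tcf4, 1598 ± 164.2 for Tcf12 and 1550 ± 68.4 for Tcf3 (SD, n = 3), or 0.419, 0.271 and 0.356 per base. All 3 E protein genes were above Tal1, with 0.219, per canonical base, but by exonic length Tcf4 with 0.133 and Tcf12 with 0.088 were below Tal1 with 0.179, and Tcf3 had 0.188. The LIM binding proteins Ldb1 and Ldb2 had 0.299 and 0.290 per base, and their stabilizer Ssbp4 had 0.627. The corepressor Cbfa2t3 (Eto2) had 2314, 1760 and 2289. Cbfa2t3, Ldb1 and Lmo4 were highest in mouse 1 and lowest in mouse 2, the order of Tal1 and Gata2, and the other listed partners were not. Of all 9358 genes that reached 200, 14.6% had this order. Runx1, a partner of the complex in blood stem cells, had only 21, 37 and 36, Tal2 had 5, 4 and 6, and Lmo3 was not listed. Lmo1, a paralog of Lmo2, had 441, 345 and 299, or 0.356 per base. Per canonical base, among the Id genes, whose products bind E proteins without binding DNA, Id1 and Id3 had 0.639 and 0.633 per base, above Tal1 and Lyl1 and below Tcf15, and Id2 had 0.208.

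**Figure D5:**
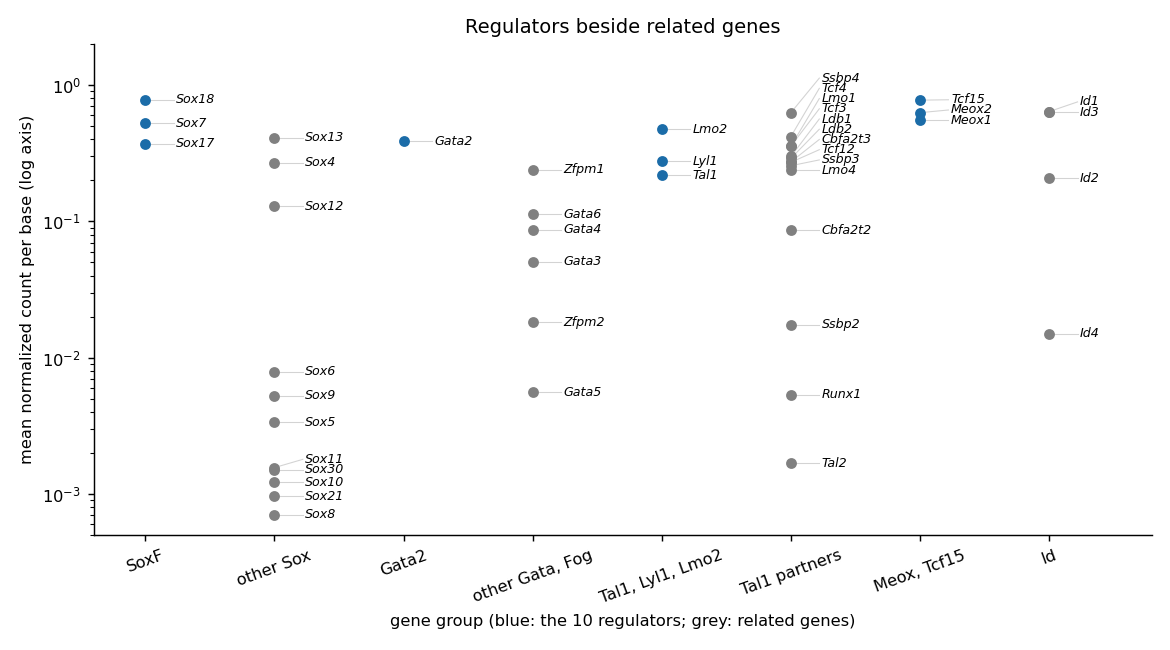
Mean normalized count per base of canonical transcript (y axis, log scale) for the 10 regulators (blue) and related genes (grey), by group (x axis). The SoxF genes lie between 0.370 and 0.778 and the other listed Sox genes between 0.0007 for Sox8 and 0.410 for Sox13. Genes absent from the table are not drawn.

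Set among 19 listed genes of other endothelial transcription factors, Sox18, Tcf15 and Meox2 took places 2, 3 and 6 of 29 per canonical base, with Foxp1 at place 1. By exonic length Sox18 took place 1, Meox2 place 4 and Tcf15 place 5, while Foxp1 fell to place 24. Klf2, the flow-responsive factor, and Epas1, which encodes HIF-2α, lay close by with 0.736 and 0.645 per canonical base. The ETS factors Elk3, Ets1 and Ets2 had 0.604, 0.575 and 0.562 per canonical base, between Meox2 and Meox1. Erg and Fli1 had 0.514 and 0.437, near Sox7 and Lmo2. By exonic length all of these ETS factors lay below Sox7. Etv2, which acts upstream of Tal1 in the embryo, was not listed.

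Genes with known SoxF-bound enhancers were listed in 6 of 6 cases. The arterial Notch ligand Dll4 had 1533, 1341 and 1367 normalized counts, or 0.368 per base, and the tight junction gene Cldn5 had 998, 1074 and 940, or 0.709 per base. Kdr, Efnb2 and Notch1 had 0.554, 0.418 and 0.171 per base. Prox1, the lymphatic target of Sox18, was the lowest of these with 349, 554 and 550, or 0.059 per base. Sox18 exceeded Prox1 per base in each mouse, and its pattern differed, since Prox1 was lowest in mouse 1. Of 6 genes bound by GATA2 or the TAL1 complex, Kit had 688, 734 and 724, Edn1 498, 479 and 546, and Vwf 1898, 1886 and 3098. Angpt2 had 483, 538 and 594. Cdh5 and Pecam1 were the highest of these genes per base, with 0.713 and 0.7465.

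Of 8 genes of fatty acid handling, 7 had a mean of at least 200. Cd36, the fatty acid translocase, had 2832, 2691 and 2565 normalized counts, and Lpl, lipoprotein lipase, had 2665, 2437 and 2309. Gpihbp1, which carries the lipase across capillaries, had 1447, 1353 and 1276. These 3 of the 8 genes fell in the order of Meox2 and Tcf15, highest in mouse 1 and lowest in mouse 3, an order that 22.7% of all 9358 genes that reached 200 had. The other 5 did not. The fatty acid binding protein genes Fabp4 and Fabp5 had 989, 1048 and 875, and 441, 479 and 418, the transporter genes Slc27a3 and Slc27a4 had 173, 215 and 159, and 575, 633 and 616, and the nuclear receptor gene Pparg had 983, 853 and 894. With 3 mice no correlation was computed.

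Because Tal1, Lyl1, Lmo2 and Gata2 are also used by blood cells, markers of blood lineages were read beside them. The 7 erythroid markers summed to 559, 504 and 529 normalized counts in mice 1, 2 and 3, including the nearly identical globin genes Hba-a1 and Hba-a2, between which reads are uncertain. This sum was highest in mouse 1 and lowest in mouse 2, the order of Tal1 and Gata2, as were 2 of its 7 genes. None of the 7 reached a mean of 200, and 14.6% of all 9358 genes that did had this order. Sox7 and Sox17 had it too, as did the sum of the 8 endothelial markers with 21877, 20654 and 20894. Among these 8, Flt1, Tek and Kdr had this order and the others did not. Cdh5 with 2808, 2860 and 2930 was lowest in mouse 1. Pecam1 and Egfl7 were highest in mouse 2, and Tie1 and Emcn were highest in mouse 1 and lowest in mouse 3. Epor, the erythropoietin receptor gene, was the largest of the erythroid markers with 222, 167 and 153. It was highest in mouse 1 but lowest in mouse 3, and without it the erythroid sum was not highest in mouse 1. The 2 genes in the order of the sum were Hba-a1 with 55, 50 and 51 and Hbb-bs with 121, 118 and 119. Hbb-bt with 62, 74 and 77 and Alas2 with 39, 47 and 77 were lowest in mouse 1. The 7 leukocyte markers, of which 6 were listed, summed to 259, 457 and 441, lowest in mouse 1. Mouse 1 held the highest value of 7 of the 10 regulators, Tal1, Lmo2 and Gata2 among them, while Lyl1 was highest in mouse 3. The 5 mast cell markers, of a lineage with high Gata2, summed to 4, 9 and 23, with Cpa3 and Fcer1a not listed, and the 5 megakaryocyte markers, of which 4 were listed, to 124, 100 and 89. The megakaryocyte sum was in the order of Lmo2, highest in mouse 1 and lowest in mouse 3, as were 3 of its 4 listed genes. None of these 4 reached a mean of 200. Of the 3 in this order, Gp9 had only 5, 2 and 0, and Ppbp only 7, 2 and 1. Of the same 9358 genes, which did reach 200, 22.7% had this order. Lymphatic markers, of an endothelial type that also uses Gata2 and Sox18, summed to 2834, 3523 and 3989 over 5 genes, also lowest in mouse 1. The 6 mural markers summed to 1373, 1501 and 1750, and 4 epicardial markers to 921, 1128 and 1029, nearly all of it Wt1. The part of these cell types in the values of the 10 regulators was not tested.

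Proximal promoters were found in the RefSeq table for 4 of the 10 regulators, Meox2, Tal1, Lyl1 and Gata2, with 6 start sites in all. A single window each of Meox2, Tal1 and Lyl1 is shown as an example for the Meox genes and for the paralogs Tal1 and Lyl1. Of the 3 windows not shown, the second of Gata2 (chr6:88175396-88175695) holds CANNTG once, and the first of Gata2 and the second of Tal1 hold none of the motifs marked below. Capitals mark the letters GATAA (GATA factors), CANNTG (the E box of helix-loop-helix pairs) and ACAAT (SOX factors) on either strand. All are on the plus strand, run 5′ to 3′ from 250 bases before to 50 bases after the start, were taken from the RefSeq table of GRCm38.p6 and were placed in GRCm39 by their single exact match. Meox2 lies at chr12:37158289-37158588, the first start of Tal1 at chr4:114913373-114913672 and Lyl1 at chr8:85427836-85428135.
Meox2: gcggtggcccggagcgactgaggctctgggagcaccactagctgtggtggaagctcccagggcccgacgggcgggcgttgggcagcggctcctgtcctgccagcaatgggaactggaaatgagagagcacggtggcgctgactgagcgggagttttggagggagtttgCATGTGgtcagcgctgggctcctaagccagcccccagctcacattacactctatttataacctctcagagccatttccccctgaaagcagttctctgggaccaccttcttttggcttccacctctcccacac
Tal1: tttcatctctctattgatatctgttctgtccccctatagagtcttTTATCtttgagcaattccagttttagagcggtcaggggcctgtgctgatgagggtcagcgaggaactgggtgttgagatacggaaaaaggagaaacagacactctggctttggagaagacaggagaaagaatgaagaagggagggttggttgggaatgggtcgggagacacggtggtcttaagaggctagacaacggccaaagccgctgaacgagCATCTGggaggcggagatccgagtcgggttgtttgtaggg
Lyl1: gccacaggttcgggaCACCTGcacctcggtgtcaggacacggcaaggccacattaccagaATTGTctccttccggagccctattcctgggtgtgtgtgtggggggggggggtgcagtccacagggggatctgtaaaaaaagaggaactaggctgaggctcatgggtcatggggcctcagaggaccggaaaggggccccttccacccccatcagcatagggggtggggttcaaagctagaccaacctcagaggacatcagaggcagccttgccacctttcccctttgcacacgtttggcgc
The Tal1 window holds GATAA once, on the opposite strand, a match found in 25.4% of 32851 promoters of this length. CANNTG occurs once in each of the 3 windows and in 72.3% of all promoters, and ACAAT occurs once in that of Lyl1 and in 31.0% of all. No motif overlaps another in these windows, and a match is only a description of the letters.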

How the data were processed

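Ribosome-associated RNA of 3 EC-RiboTag hearts was sequenced. The authors trimmed reads with Trimmomatic 0.39, aligned them to mm39 with STAR 2.7.11a, removed duplicates (Picard 3.1.1) and multi-mapping, ribosomal and mitochondrial reads, counted reads per gene by strand without reads shared by several genes (featureCounts 2.0.4), and normalized the counts with DESeq2 1.36.0. The deposited values are a score, normalized counts rounded to whole numbers, so no count model was fitted. Sums were 7149102, 7158585 and 7268785, from about 7317000, 6757000 and 7564000 reads.

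Lengths came from the GENCODE annotation of GRCm39, which holds 17475 of the 17583 identifiers (99.4%) and is newer than that of the authors. Copies were searched with BLAST 2.17.0. For ratios, signs were flipped over mice in an exact permutation test. Computations used Python 3.11.15, numpy 2.4.6, pandas 2.3.3 and matplotlib 3.10.9, and the estimates of reads, scaling and spread were tested on simulated data. The members and gene lists were chosen with earlier results of these data known. Genes named were the 10 members, the genes of these lists and the 3 nearest in pattern to Meox2 and to Tcf15. Protein sequences were not used here.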

Additional observations from a re-analysis of the deposited data

How the results depend on the processing

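Levels of the 10 regulators moved by less than the SD between mice under scaling by trimmed means, under scaling to equal totals and with each mouse left out. Of the 7 log2 ratios, 1 reversed by exonic length, that of Meox2 to Tcf15 with 0.16, and 4 reversed without division by length, with 0.94 for Meox2 to Tcf15, 0.57 for Sox7 to Sox18, 0.76 for Tal1 to Lyl1 and -0.67 for Lmo2 to Gata2. The alternative itself, another length, makes these changes. With each mouse left out in turn, all 7 ratios kept their sign, and a test over 2 mice cannot give a p below 0.5. The number of neighbouring pairs apart was 6 by either length and 5 without division. No regulator passed a coefficient of variation of 20% under any of the 6 alternatives to this count, under which between 4.84% (without mouse 1) and 11.6% (minimum mean of 100) of all genes did. Ranks per base moved by more than the spread between mice for all 10 regulators by exonic length and for 9 without division by length. Lowering the minimum mean from 200 to 10 raised the number of entries of the gene lists above it from 84 to 117. No paired analysis was possible because all libraries form 1 group. Depth limits the lowest regulator, Lyl1, to a counting error of 4.31%.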
